A study of Mus musculus with 30 samples.

Results

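Carbonic anhydrases catalyse the interconversion of carbon dioxide and bicarbonate, and the 8 genes described here are Car6, Car2, Car3, Car4, Car12, Car14, Car8 and Car11. They were read by 11 of the 41174 array probes that are not controls, found by the gene name in the array files, and they are 8 of the 16 carbonic anhydrase genes named on the array. Car6 was selected on its lower signal in the eyes of knockout mice, so that difference is given as a description without a test. Which measured values led to the choice of the other 7 genes is not known.

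RNA was measured in male adult Per3-/- mice, functional knockouts of the clock gene Period3 that lack its protein while a Per3 transcript is still made, and in their wild-type (WT) littermates, all on a C57Bl/6J background. Every mouse had passed 17 cycles of 3.5 h light and 3.5 h dark (LD 3.5:3.5) and was killed in light during the last cycle, so no group was free of this light schedule. The hypothalamic block, cut around the optic chiasm and including the suprachiasmatic nucleus, was measured in 8 WT and 8 Per3-/- mice, and the whole eye in 7 mice of each genotype, with an array for each animal's tissue and no pooled RNA. The study asked which transcripts differ between genotypes under a schedule in which light suppresses activity less in the knockout.

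Carbonic anhydrases divide by where the protein works. Car2 and Car3 are cytosolic, Car4, Car12 and Car14 are bound to the cell membrane with the active site outside, Car6 is the secreted form known from saliva and tears, and Car8 and Car11 are related proteins that have lost the enzymatic activity. In the eye the active enzymes are known for their part in aqueous humour secretion and in acid and bicarbonate handling by the retina and its pigment epithelium. In the brain they are known from glia, capillaries and the choroid plexus, which secretes the cerebrospinal fluid.

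Each level below is the log2 of a probe's signal relative to the 75th percentile of its array, so 0 is the signal of that percentile and 1 unit is a doubling. Levels of different probes cannot be set against each other on this kind of array, and comparisons are between arrays for the same probe. The 75th percentile was 1131 to 1644 intensity units on eye arrays and 1408 to 2207 on hypothalamus arrays, and 71.5% to 80.8% and 68.0% to 75.7% of probes were well above background. The defining genes shown here fitted the tissue labels apart from Vip. The summed level of 5 photoreceptor genes was 361 to 457 times the percentile in the eye and at most 0.155 in the hypothalamus. That of 8 hypothalamic neuron genes was 1.29 to 4.34 in the eye and 141.8 to 579.7 in the blocks, where the highest WT block was at 198.1. Pomc, 1 of the 8, made up as much as 69.9% of the sum in a Per3-/- block and 80.9% in a Per3-/- eye. Of these 8, 7 were called lower in the eye in each genotype. Vip differed, eye minus hypothalamus, by 0.23 in WT and 0.12 in Per3-/- mice (limma, adjusted p = 0.11 and 0.409). Prl and Gh, the pituitary hormone genes of prolactin and growth hormone, were at 8.15 and 8.21 in the block of Per3-/- mouse 1 and at 4.68 and 3.60 in that of WT mouse 5, against at most -3.24 and -3.55 in the other 14 blocks. Pomc was at 8.66 in the first and 2.94 in the second of these blocks, against at most 3.34 in the other 14. The limma comparisons that use the hypothalamus were therefore also fitted without both blocks. The exact permutation tests and the relations with marker lists were not. The Per3 probe was measured above background throughout, with medians of -3.22 in WT and -3.74 in Per3-/- eyes and -3.45 and -3.99 in the blocks. Its ranges overlapped between genotypes in both tissues, and the exon it reads is not given in the sources used here, so it does not check the genotype. Every slide, 4 for either tissue, carried both genotypes but only 1 tissue, so tissue and slide cannot be told apart.

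The probes of the 3 genes on which the results turn most are shown by their first 30 of 60 bases, 5′ to 3′, with the position of the whole probe on mouse assembly mm9. The Car6 probe lies at chr4:149561287-149561346 on the minus strand, 0.818 Mb from the probe of Per3 on the same chromosome. The pair of Car3 probes lie at chr3:14871781-14871840 and chr3:14864731-14864790, both on the plus strand, and the pair of Car12 probes at chr9:66614036-66614095 and across chr9:66601610-66611064, both on the plus strand. The last interval is 9455 bases long for a probe of 60 bases, so its probe joins exons. In both pairs the first probe is the one of higher mean signal and is the one reported in full.
Car6: gacttcgacggacgtgcaaagaaatcaagc
Car3, reported probe: acatgcaaccgcagtgccttttgacatgat
Car3, other probe: ggctttctgaccaccgagagacaacgtttt
Car12, reported probe: tcagcgctgtcaacctttaactcctgaaga
Car12, other probe: tatatctccttccgacaaggactgcttacc

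Car6, the secreted enzyme, was measured in every eye and in no hypothalamic block. In the 7 WT eyes its level was -0.04, 0.15, 0.17, -0.13, -0.06, -0.02 and 0.16, a mean of 0.03 ± 0.12 (SD, n = 7). In the 7 Per3-/- eyes it was -1.08, -0.83, -0.62, -1.09, -1.01, -0.96 and -1.34, a mean of -0.99 ± 0.23 (SD, n = 7). All 7 Per3-/- eyes lay below every WT eye, with 0.49 log2 units between the lowest WT and the highest Per3-/- eye, a separation in this direction that 0.0486% of all probes showed. The difference, Per3-/- minus WT, was -1.02 ± 0.10 (SE), a 2.03-fold lower signal. It was negative on each of the 4 eye slides, from -1.22 to -0.88. Car6 was chosen on these same eyes, so neither its size nor its sign by slide is a test. In whole tissue, fewer cells of a type and less RNA per cell cannot be told apart.

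**Figure D1:**
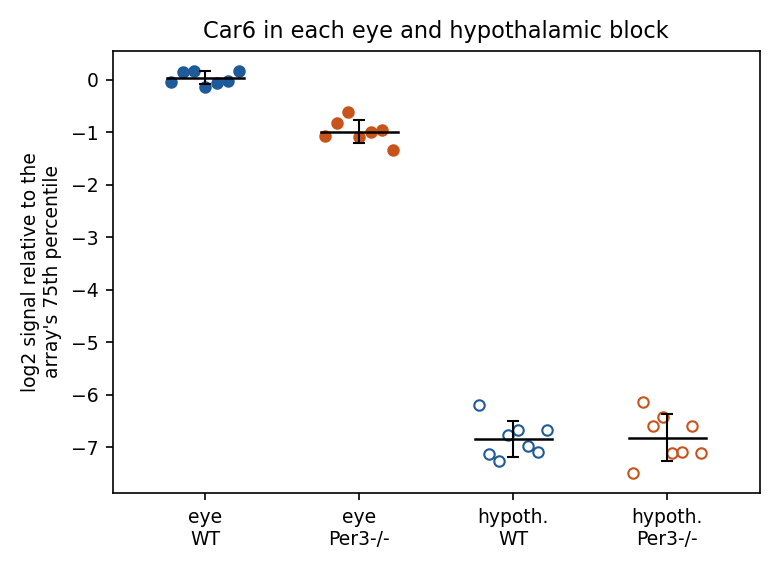
Car6 level in each of 30 arrays (vertical axis, log2 signal relative to the array's 75th percentile) for WT and Per3-/- eyes and hypothalamic blocks. Filled points are well above background and open points are not, and lines with bars are the mean ± SD. The 7 Per3-/- eyes lie between -1.34 and -0.62, below all 7 WT eyes, and all 16 blocks are open points between -7.49 and -6.13.

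On none of the 16 hypothalamus arrays was the Car6 probe well above background. Its signal there was -6.84 ± 0.34 in 8 WT and -6.82 ± 0.45 in 8 Per3-/- blocks (mean ± SD), and no genotype difference is drawn from such values. Against that background the level of the eye was 118-fold higher in WT mice (limma, adjusted p = 1.54e-25) and 56.7-fold higher in Per3-/- mice. Each ratio sets the mean of the eyes against the signal of the blocks themselves. That signal was above the lowest signal counted as well above background on those arrays. The ratios depend on the background correction and were smaller with another one (normexp), as given below.

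Markers of the tissues from which secreted Car6 is known were set beside it. The summed level of 11 lacrimal, Harderian and salivary gland genes was 130.5 to 186.3 times the 75th percentile in WT eyes and 127.5 to 168.0 in Per3-/- eyes, and none of the 11 passed the test between genotypes (limma; 0 at an unadjusted p under 0.05 and 0 by the methods' t-test). The 7 genes of the corneal and conjunctival epithelium summed to 475 to 637 in WT and 430 to 530 in Per3-/- eyes, again with 0 calls (limma; 1 at an unadjusted p under 0.05 and 0 by the methods' t-test). Of the 11 gland genes 6 were well above background on every eye array and Prol1, Dcpp1 and Muc19 on none, and the gland sum was mostly Aqp5, a water channel that the cornea also expresses (77.2% to 90.7% of it in each eye), so the relation below is largely one with Aqp5. Across the 14 eyes, after removal of each genotype's mean, Car6 and the gland list had r = 0.09 (permutation p = 0.759, adjusted p = 0.898) and rho = 0.09 (permutation p = 0.769, adjusted p = 0.859), and r was 0.37 without the 2 eyes farthest from the median of the list. For Car6 and the corneal list r was 0.00 (permutation p = 0.997, adjusted p = 0.997) and rho -0.03 (permutation p = 0.928, adjusted p = 0.928), and r was -0.21 without the 2 farthest eyes. Adjustments here and below are over 15 relations of a member with a marker list, each permuted 100000 times within genotype, and these relations were picked after the levels of the members had been seen.

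The genes whose level moved most like Car6 over the 14 eyes, once genotype means were removed, were taken among 27891 probes detected above background in all 14 eyes. They were Pcolce, an enhancer of procollagen processing (r = 0.90), Casc5, a kinetochore protein (r = 0.90), Dhrs1, a dehydrogenase (r = 0.87), Trpm1, the cation channel of retinal ON bipolar cells and melanocytes (r = 0.86), and Mfap2, a protein of elastic microfibrils (r = 0.83). These are the highest of many values over 14 arrays that share slides and scaling, and are given without a p. Their own genotype differences in the eye were between -0.05 and 0.04. Among the nearest probes on either side of Car6, that of the fructose transporter Slc2a5, 43.5 kb away, differed by -1.37 ± 0.15 (SE) in the eye, where 4 of 7 Per3-/- arrays measured it (limma, adjusted p = 0.0018), and by -1.71 ± 0.14 in the hypothalamus (limma, adjusted p = 5.45e-05), while Eno1 on the other side, 56.8 kb away, differed by 0.17 ± 0.08 and -0.09 ± 0.05 (limma, adjusted p = 1 and 0.991).

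Of the 11 member probes, 1, that of Car6, was called between genotypes in the eye, against 0.0194% of all 41174 probes (8 probes, limma, adjusted p under 0.05). Nothing is read from this share because that contrast chose Car6. With the replicate number of the mice as a block, over 12 eyes, the Car6 difference was again -1.02, but 0 of 11 probes were called and 1 probe of the whole array was. None of the other 10 member probes reached an unadjusted p of 0.05 in the eye, where their differences ran from -0.13 to 0.24 and 5 of 10 were negative. In the hypothalamus 0 of 11 were called (limma, lowest adjusted p = 0.991), against 0.0413% of all probes (17 probes), none reached an unadjusted p of 0.05, and 0 were called by the methods' t-test. The probe of Car6 and the other probes of Car3 and Car12 mostly compare background there, and 0 of 8 were called in the test limited to probes well above background. Those differences, without Car6, ran from -0.16 to 0.41 with 4 of 10 negative, and 0 of 11 were called without both blocks that held Prl and Gh. Exact permutation tests of single probes, 21 in all, gave no adjusted p below 0.854, where the smallest unadjusted p that the design allows is 0.000583 for eyes and 0.000155 for blocks. The genotype effect of the 10 probes other than Car6 was called different between the tissues for 0 of 10 (limma, lowest adjusted p = 1), against 0.00486% of all probes (2 probes), and 0 of 10 had an unadjusted p under 0.05.

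**Figure D2:**
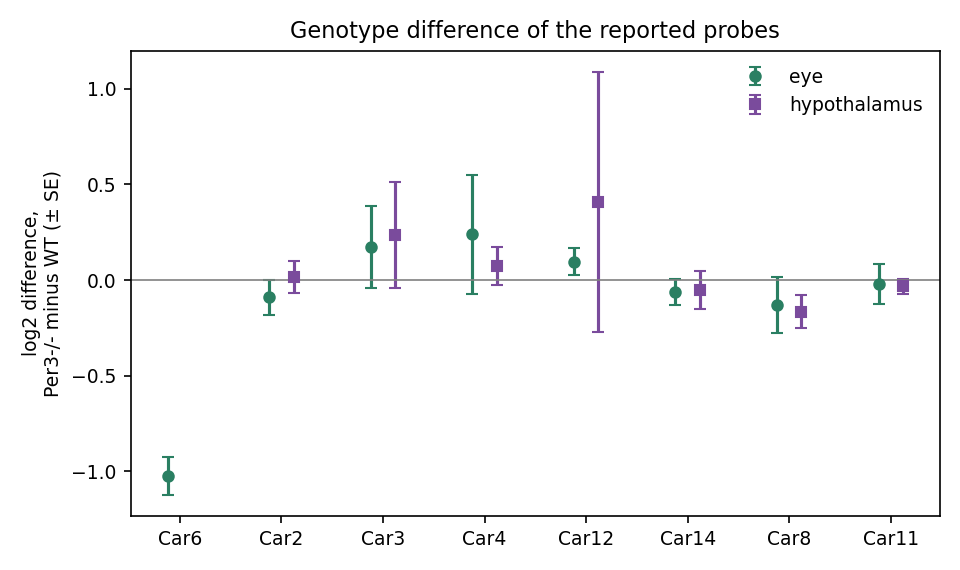
Genotype difference, Per3-/- minus WT, of the reported probe of each gene (vertical axis, log2 units; points are limma estimates and bars their SE) in the eye (circles) and hypothalamus (squares). Car6 has no hypothalamus point because it was not measured there. Car6 lies at -1.02 in the eye and the other points lie between -0.16 and 0.41, with the widest bar at Car12 in the hypothalamus (SE 0.68).

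Between tissues most members differed in both genotypes. Of the 11 probes, 10 were called in WT mice (8 higher and 2 lower in the eye), against 75.6% of all probes (42.1% higher and 33.6% lower). In Per3-/- mice 10 were called, again 8 higher and 2 lower, against 77.8% (44.4% and 33.4%). The share is thus of the size found over the whole array with 1 probe not called. The median difference, eye minus hypothalamus, was 2.55 over the members in WT and 2.54 in Per3-/- mice, beside 0.16 and 0.23 over all probes. Quantile normalization moved the medians over all probes to -0.07 and -0.06, and normexp background correction moved that of Per3-/- mice to 0.59, and differences are to be read against these shifts. Normexp correction also narrowed differences of dim probes, that of Car6 to 4.29 in WT and 3.55 in Per3-/- mice and that of Car4 to -2.88 and -2.58. The groups did not overlap for 9 of 11 probes in each genotype, against 56.2% of all probes in WT and 55.0% in Per3-/- mice. Both counts of 10 were the same without the blocks that held Prl and Gh.

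**Figure D3:**
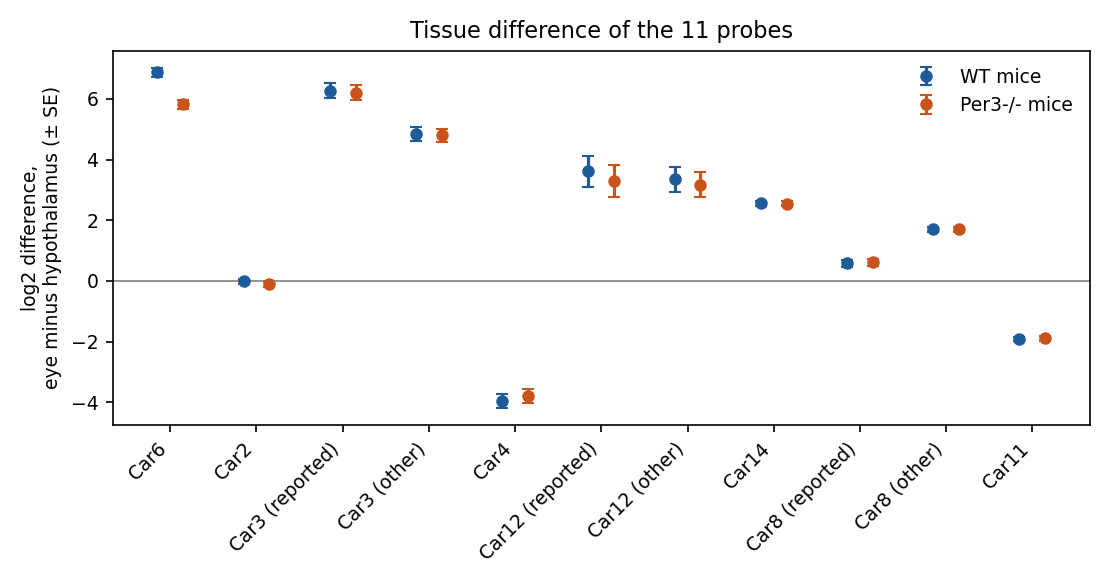
Difference between tissues, eye minus hypothalamus, of all 11 member probes (vertical axis, log2 units; points are limma estimates and bars their SE) in WT and Per3-/- mice. Car6 is at 6.87 and 5.82, Car3 at 6.27 and 6.21 and Car4 at -3.96 and -3.80, and Car2 at -0.01 and -0.11. Car6 was not measured in the hypothalamus, so its points compare with background signal.

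Of the cytosolic enzymes, Car3 was higher in the eye and Car2 was not called between tissues. Car2, the fast and widespread form, which marks oligodendrocytes in brain, had a level of 3.84, 4.22 and 4.39 (lowest, median, highest) in WT eyes and 3.94, 4.10 and 4.24 in Per3-/- eyes. In the blocks it was 3.86, 4.21 and 4.46 in WT and 3.99, 4.20 and 4.56 in Per3-/- mice. All 4 groups overlapped. The tissue difference was -0.01 ± 0.09 (SE; 95% interval -0.18 to 0.17) in WT (limma, adjusted p = 0.946) and -0.11 ± 0.09 (-0.29 to 0.06) in Per3-/- mice (limma, adjusted p = 0.222), and it turned to 0.17 and 0.07 with quantile normalization. The genotype difference was -0.09 ± 0.09 (-0.29 to 0.11) in the eye and 0.02 ± 0.08 (-0.16 to 0.20) in the hypothalamus.

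In the hypothalamus Car2 varied with the oligodendrocyte list, 8 genes of myelin and its cells, across the 16 blocks. With genotype means removed r was 0.68 (permutation p = 0.00698, adjusted p = 0.0262) and rho 0.77 (permutation p = 0.00112, adjusted p = 0.0084). It was 0.78 without the 2 blocks farthest from the median and 0.78 with slide means removed as well. In the eye, where that list summed to 14.99 to 84.22 against 236 to 343 in the blocks, r was -0.10 (permutation p = 0.778, adjusted p = 0.898) and rho -0.37 (permutation p = 0.244, adjusted p = 0.366).

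Car3, the slow form that is abundant in skeletal muscle and fat, was higher in the eye. Its reported probe had a level of 2.74, 3.19 and 3.60 (lowest, median, highest) in WT eyes and 2.47, 3.50 and 3.93 in Per3-/- eyes. In the blocks it was -3.87, -3.01 and -2.55 in WT and -3.53, -2.84 and -1.64 in Per3-/- mice, so every eye exceeded every block. The tissue difference was 6.27 ± 0.25 (SE), or 77.1-fold, in WT mice (limma, adjusted p = 1.22e-19) and 6.21 ± 0.25 in Per3-/- mice (limma, adjusted p = 1.59e-19). The other Car3 probe agreed in direction and was well above background in no WT block and in 2 of 8 Per3-/- blocks. Against the background signal of the WT blocks it was 28.9-fold higher in WT eyes, a ratio that depends on the background correction. The reported probe's genotype differences were 0.17 ± 0.21 (-0.30 to 0.64) in the eye and 0.24 ± 0.28 (-0.36 to 0.83) in the hypothalamus. With 1 array left out they ran from 0.08 (without Per3-/- mouse 3) to 0.32 (without Per3-/- mouse 2) in the eye and from 0.06 (without Per3-/- mouse 8) to 0.33 (without Per3-/- mouse 1) in the hypothalamus.

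Levels of the reported Car3 probe within the eye ran with those of fat genes. The relations below are for that probe, and none was computed for the other Car3 probe, which every eye measured. The probes did not order the eyes alike. Per3-/- mouse 2 was the lowest of the 14 eyes on the reported probe (2.47) and the highest on the other (-1.61). The 7 adipose genes summed to 12.7 to 103.7 times the 75th percentile in WT eyes and 11.3 to 166 in Per3-/- eyes, with a median genotype difference of 0.52 beside 0.00 over all probes and 0 of 7 called (limma; 0 at an unadjusted p under 0.05 and 0 by the methods' t-test). Fabp4 alone made up 42.5% to 58.5% of that sum in WT and 43.3% to 61.8% in Per3-/- eyes. With genotype means removed, Car3 and the adipose list had r = 0.78 (permutation p = 0.00187, adjusted p = 0.014) and rho = 0.76 (permutation p = 0.00609, adjusted p = 0.0228) over 14 eyes, and r was 0.73 without the 2 farthest eyes and 0.82 with slide means removed. The relation was closer among Per3-/- eyes (r = 0.95) than among WT eyes (r = 0.39), a difference that was not tested. With the 8 skeletal muscle genes r was 0.62 (permutation p = 0.0209, adjusted p = 0.0626) and rho 0.67 (permutation p = 0.0131, adjusted p = 0.0392), so r missed the threshold after adjustment and rho did not. That r was 0.52 without the 2 farthest eyes, 0.82 among Per3-/- eyes and 0.33 among WT eyes, and over the 16 blocks it was 0.31 (permutation p = 0.259, adjusted p = 0.431; rho 0.24, permutation p = 0.386, adjusted p = 0.526). With the adipose list in the hypothalamus, where at most 4 of 7 adipose genes were detected in all 8 blocks of a genotype, r was -0.59 (permutation p = 0.0322, adjusted p = 0.0804) and rho -0.59 (permutation p = 0.0195, adjusted p = 0.0488).

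The membrane enzymes differed from each other in the direction of the tissue difference. Car4, the form anchored on the surface of capillary endothelium, had levels of -5.63, -4.87 and -3.29 (lowest, median, highest) in WT eyes and -4.58, -4.38 and -3.94 in Per3-/- eyes. In the blocks it was at -0.77, -0.60 and -0.20 in WT and -0.83, -0.41 and -0.26 in Per3-/- mice, above every eye. The difference, eye minus hypothalamus, was -3.96 ± 0.22 (SE), or 15.6-fold lower in the eye, in WT (limma, adjusted p = 4.05e-16) and -3.80 ± 0.22 in Per3-/- mice (limma, adjusted p = 1.13e-15). WT eyes spread more widely (SD 0.85) than Per3-/- eyes (SD 0.25), and the genotype difference was 0.24 ± 0.31 (-0.44 to 0.92) in the eye (0.05 without WT mouse 4 and 0.44 without WT mouse 6) and 0.07 ± 0.10 (-0.14 to 0.29) in the hypothalamus.

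Over the 16 blocks Car4 varied with the summed level of 5 endothelial genes. Flt1 alone made up 56.4% to 60.7% of that sum in WT and 49.45% to 63.2% in Per3-/- blocks. With genotype means removed r was 0.68 (permutation p = 0.0031, adjusted p = 0.0155) and rho 0.69 (permutation p = 0.00414, adjusted p = 0.0207), and r was 0.70 without the 2 farthest blocks. It was 0.46 once slide means were removed as well. The endothelial list itself summed to 8.81 to 14.04 in the eyes and 14.8 to 19.4 in the blocks.

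Car14, a membrane form known from retinal glia and pigment epithelium, was higher in the eye with little spread. Its levels were 3.18, 3.33 and 3.42 (lowest, median, highest) in WT eyes and 3.15, 3.17 and 3.45 in Per3-/- eyes, and 0.49, 0.72 and 1.02 in WT and 0.28, 0.70 and 0.97 in Per3-/- blocks. No eye overlapped with a block. The tissue difference was 2.55 ± 0.08 (SE), or 5.87-fold, in WT (limma, adjusted p = 9.23e-22) and 2.54 ± 0.08 in Per3-/- mice (limma, adjusted p = 1.06e-21). Genotype differences were -0.06 ± 0.07 (-0.21 to 0.08) in the eye and -0.05 ± 0.10 (-0.26 to 0.16) in the hypothalamus. With the 7 Mueller glia genes over 14 eyes r was 0.38 (permutation p = 0.226, adjusted p = 0.424) and rho 0.45 (permutation p = 0.112, adjusted p = 0.209), and r was 0.57 without the 2 farthest eyes.

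Car12, the membrane form known from the ciliary epithelium, kidney and choroid plexus, was steady in the eye and very uneven in the hypothalamus. In WT eyes its reported probe had levels of 0.01, 0.17 and 0.36 (lowest, median, highest) and in Per3-/- eyes 0.19, 0.23 and 0.47. In the blocks it ran from -4.75 to -1.50 (median -3.81) in WT and from -5.02 to -1.14 (median -3.25) in Per3-/- mice, all below the lowest eye. The SD was thus 0.12 and 0.11 in the eyes but 1.29 and 1.58 in the blocks. The tissue difference was 3.62 ± 0.52 (SE), or 12.3-fold, in WT (limma, adjusted p = 2.87e-07) and 3.30 ± 0.52 in Per3-/- mice (limma, adjusted p = 1.4e-06). The other probe, across an exon junction, was higher in the eye too, but only 1 of 8 blocks of each genotype measured it, so its difference of 3.35 ± 0.42 and 3.18 ± 0.42 compares the eye largely with background signal and was 1.04 and 1.46 with normexp background correction. The genotype difference was 0.10 ± 0.07 (-0.06 to 0.25) in the eye. In the hypothalamus it was 0.41 ± 0.68 (-1.05 to 1.87), between -1.002 and 2.83 on single slides, 0.14 without Per3-/- mouse 4, 0.70 without Per3-/- mouse 2 and 0.66 without both blocks that held Prl and Gh.

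Car12 was highest in blocks with high levels of choroid plexus genes. A list of 7 such genes, among them Ttr, the transthyretin of the choroid plexus, and Slc4a5, a bicarbonate transporter, parted the blocks at its widest gap into 7 with a log2 summed level of 2.85 to 4.66 (3 WT, 4 Per3-/-) and 9 with 1.15 to 2.01 (5 WT, 4 Per3-/-), a split made after the values had been seen. Clic6, 1 of the 7 genes, made up 30.1% to 77.5% of the sum in WT blocks and 28.5% to 74.8% in Per3-/- blocks. In the 7 blocks of the higher set Car12 was between -3.30 and -1.14 (median -1.50) and Ttr between 0.09 and 3.03. In the other 9 blocks Car12 was between -5.02 and -3.20 (median -4.53) and Ttr between -6.29 and -1.44. The sets overlapped in Car12 at 1 block each, since Per3-/- mouse 7, at -3.20, had the lowest list level of all blocks and lay above Per3-/- mouse 1 of the higher set, at -3.30. Over all 16 blocks, with genotype means removed, r was 0.94 (permutation p = 6e-05, adjusted p = 0.0009) and rho 0.86 (permutation p = 9e-05, adjusted p = 0.00135). That r was 0.91 without the 2 farthest blocks. Within the 7 blocks Car12 and the list had r = 0.99 and rho = 0.96, and r was 0.97 without the 2 farthest. Within the 9 blocks r was -0.06 and rho 0.02, with r at 0.28 without the 2 farthest. Genotype means were not removed within the sets. These values are given without a p because the sets were made from the same data. The 7 genes had a median genotype difference of 0.41 in the hypothalamus with 0 of 7 called (limma; 0 at an unadjusted p under 0.05 and 0 by the methods' t-test), and the part of choroid plexus RNA in the Car12 difference was not tested. In the eye, where the list summed to 31.3 to 37.4 times the 75th percentile, r was -0.42 (permutation p = 0.152, adjusted p = 0.326) and rho -0.38 (permutation p = 0.206, adjusted p = 0.344).

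**Figure D4:**
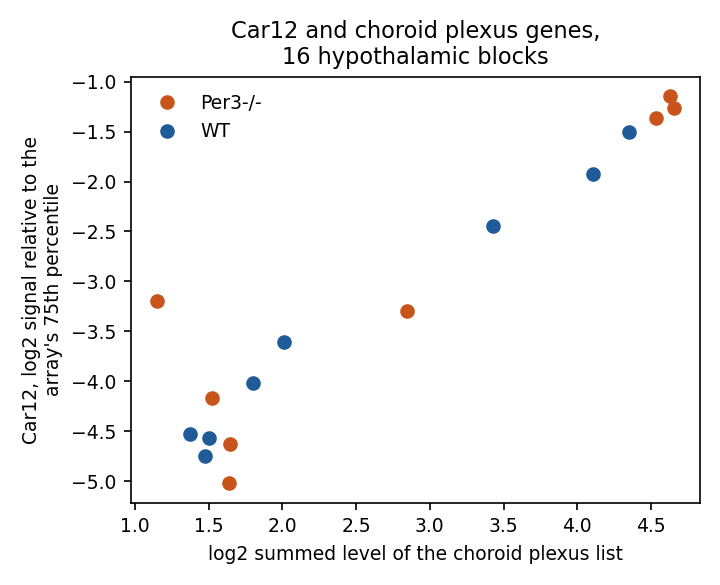
Car12 level (vertical axis, log2 signal relative to the array's 75th percentile) against the log2 summed level of 7 choroid plexus genes (horizontal axis) in 16 hypothalamic blocks, with 1 point a mouse. The 7 blocks at 2.85 or more on the horizontal axis climb from -3.30 to -1.14 in Car12, and the 9 blocks at 2.01 or less lie between -5.02 and -3.20 with both genotypes in each set.

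Car8 and Car11 have no carbonic anhydrase activity. Car8, known as a partner of the inositol trisphosphate receptor in Purkinje cells, had 2 probes on chromosome 4 far from Car6, at chr4:8072704-8072763 and chr4:8070545-8070604. The reported probe had levels of -0.94, -0.53 and -0.23 (lowest, median, highest) in WT and -0.99, -0.70 and -0.02 in Per3-/- eyes, and -1.36, -1.10 and -0.89 in WT and -1.63, -1.27 and -0.99 in Per3-/- blocks. Eyes and blocks overlapped for this probe. Its tissue difference was 0.58 ± 0.12 (SE) in WT (limma, adjusted p = 5.01e-05) and 0.61 ± 0.12 in Per3-/- mice (limma, adjusted p = 2.24e-05). The other probe differed by 1.70 ± 0.08 and 1.71 ± 0.08 without overlap (limma, adjusted p = 2.03e-17 and 1.92e-17), so the probes had 1 direction and unequal sizes. The genotype difference of the reported probe in the blocks was -0.16 ± 0.09 (-0.35 to 0.02; exact permutation p = 0.0814, adjusted p = 0.854; limma, adjusted p = 0.991), negative on 4 of 4 slides. For the other probe this was -0.11 ± 0.09, likewise negative on 4 of 4 slides. In the eye the differences were -0.13 ± 0.15 and -0.11 ± 0.09. None of these 4 differences passed the test.

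Car11, a secreted relative found mainly in brain, was lower in the eye. Its levels were 0.00, 0.12 and 0.43 (lowest, median, highest) in WT eyes and -0.27, 0.13 and 0.43 in Per3-/- eyes, and 1.96, 2.08 and 2.11 in WT and 1.92, 2.05 and 2.18 in Per3-/- blocks. The blocks were close together, all above every eye. The difference, eye minus hypothalamus, was -1.91 ± 0.07 (SE), or 3.76-fold lower in the eye, in WT (limma, adjusted p = 4.51e-20) and -1.90 ± 0.07 in Per3-/- mice (limma, adjusted p = 5.5e-20). Genotype differences were -0.02 ± 0.11 (-0.25 to 0.21) in the eye and -0.03 ± 0.04 (-0.12 to 0.05) in the hypothalamus.

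**Figure D5:**
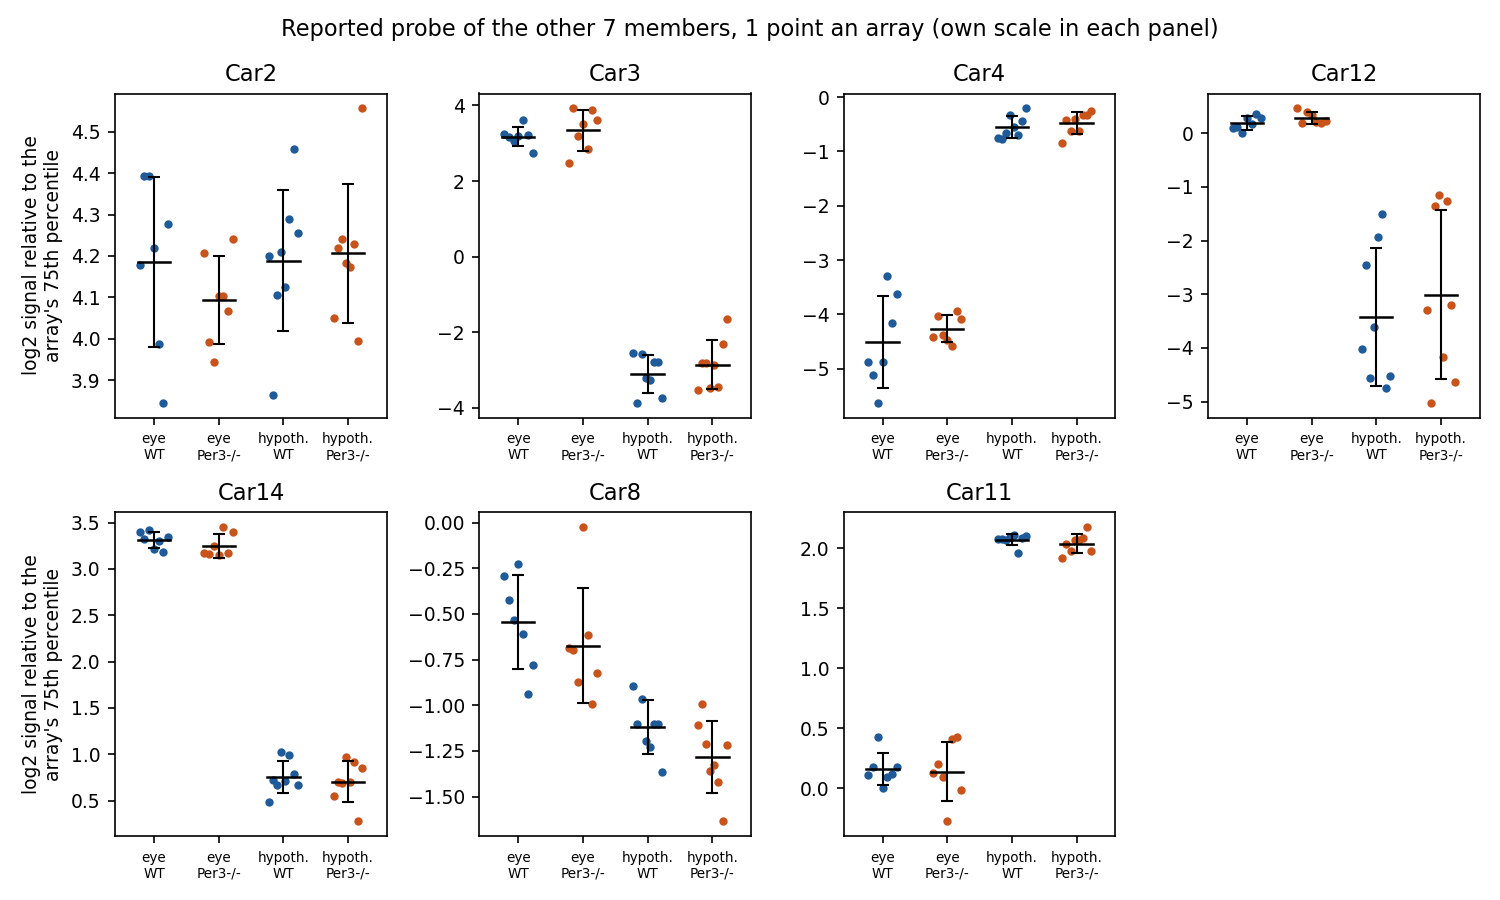
Level of the reported probe of Car2, Car3, Car4, Car12, Car14, Car8 and Car11 in each of 30 arrays (vertical axes, log2 signal relative to the array's 75th percentile, with a scale of its own in each panel); lines with bars are the mean ± SD. Car3, Car12 and Car14 are higher in every eye than in any block, Car4 and Car11 are lower, and Car2 overlaps in all 4 groups.

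The other 8 carbonic anhydrase genes on the array gave 0 calls between genotypes in either tissue (limma), with 0 at an unadjusted p under 0.05 and 0 by the methods' t-test, and a median difference of 0.10 in the eye and 0.05 in the hypothalamus, beside 0.00 and -0.01 over all probes. Between tissues, 6 were higher and 2 lower in the eye in each genotype. Car5b, a mitochondrial form, differed by 2.12 ± 0.10 (SE) in WT and 2.31 ± 0.10 in Per3-/- mice, and Car1, the red cell form, by 1.88 ± 0.20 and 1.77 ± 0.20. In the other direction Car10, an inactive relative of brain, differed by -1.43 ± 0.06 and -1.38 ± 0.06, and Car15 by -0.81 ± 0.08 and -0.76 ± 0.08.

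Most transporters of the Slc4 family carry bicarbonate, the product of these enzymes, across the membrane. All 10 Slc4 genes were measured, and 0 were called between genotypes in the eye or the hypothalamus (limma, lowest adjusted p = 1 and 0.704; 0 by the methods' t-test). At an unadjusted p under 0.05 there were 2 in the eye, Slc4a9 (0.30 ± 0.12) and Slc4a11 (0.36 ± 0.16), and 1 in the hypothalamus, Slc4a9 (0.32 ± 0.08). Between tissues 5 were higher and 5 lower in the eye in each genotype. Slc4a5, the transporter of the choroid plexus, differed by 5.14 ± 0.67 (SE) in WT and 4.70 ± 0.67 in Per3-/- mice. Slc4a11, known from the corneal endothelium, was not measured above background in any block. Its eye mean was 13.4-fold above the block signals in WT and 18.1-fold in Per3-/- mice. Block signals were raised, where lower, to the lowest signal counted as well above background on their array. These ratios compare with background signal and are not lower bounds. Slc4a4, a sodium bicarbonate cotransporter, differed by -3.17 ± 0.17 and -3.23 ± 0.17, and the neuronal Slc4a10 by -2.47 ± 0.06 and -2.54 ± 0.06.

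Of 13 proton exchangers and lactate transporters 12 were measured, and 0 were called between genotypes in either tissue (limma, with 0 in the eye and 1 in the hypothalamus at an unadjusted p under 0.05, and 0 by the methods' t-test). Between tissues 4 were higher and 8 lower in the eye in WT mice, and 4 and 7 in Per3-/- mice. Slc16a8, the lactate transporter of the retinal pigment epithelium and choroid plexus, differed by 5.91 ± 0.30 (SE) in WT and 5.57 ± 0.30 in Per3-/- mice. The epithelial proton exchanger Slc9a3 was not above background in any block. Its eye mean was 14.7-fold in WT and 13.8-fold in Per3-/- mice above the block signals, taken as for Slc4a11. These ratios are not lower bounds either. In the other direction Slc16a7, a lactate and pyruvate transporter, differed by -1.07 ± 0.05 in WT and -1.003 ± 0.05 in Per3-/- mice.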

How the data were processed

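RNA of 30 samples was hybridised with Cy3 to Agilent 4 x 44K arrays of 60-mer probes. The authors extracted spots with Feature Extraction 10.7.1.1 and analysed them in GeneSpring 12. Per the file headers the deposited processed signal is a background-subtracted intensity on a linear scale, and the well-above-background and outlier marks the authors deposited are other, yes-or-no columns. The authors also deposited log2 values, which match the processed signals relative to each array's 75th percentile, centred on the probe's median per tissue (correlation 0.99993 and 0.99999, array medians between -0.0725 and 0.0803). How their centring was set is read from the values.

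Outlier spots were left out, spots of a probe averaged, and log2 of the array's 75th percentile subtracted. Genotypes were compared within each tissue, and tissues over all arrays with the mouse as random block (correlation 0.059, 14 mice with both tissues), by limma 3.58.1 in R 4.3.3, two-sided, with Benjamini-Hochberg adjustment over 41174 probes. Scripts were tested on simulated data. Exact permutation tests and correlations used Python 3.11.15, numpy 2.4.6, pandas 2.3.3 and scipy 1.17.1. For a gene with several probes the reported probe is that of highest mean signal over both tissues. Gene names and positions came from the hypothalamus array files (mm9), the eye arrays being matched by probe identifier, and 10 of 11 member probes' accessions matched RefSeq under the same symbol. Transporter and neighbour genes were named by the largest differences and the nearest positions. A gene that this rule would name is not reported here. The members and lists were chosen with earlier results of these data known.

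Same-numbered WT and Per3-/- eyes deviated together (6 pairs, correlations 0.109 to 0.627, all over 0.1, from the data and not from the labels), so the replicate number was tried as a block. In the hypothalamus the correlations were -0.0293 to 0.315, with 3 of 8 over 0.1. Same-numbered WT and Per3-/- arrays of a tissue also lay on the same slide, so the number is not apart from the slide. What else the number marks is not in the labels. Alternatives were quantile normalization, normexp background correction (offset 50, from spot medians on eye arrays), a test limited to probes well above background, slide as block, the methods' t-test, the authors' values, each array left out and, added after seeing the data, the hypothalamus without Per3-/- mouse 1 and WT mouse 5. Signals below the well-above-background mark compare background, and folds against such signals hold for the deposited background subtraction only. The number of arrays limits the precision.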

Additional observations from a re-analysis of the deposited data

Results flagged for a closer look

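In 4 of 44 groups of a probe 1 array lay farther from its neighbour than Dixon's limit allows, and chance alone flags about 1 in 20 groups. Car2 was highest in the block of Per3-/- mouse 8, at 4.56 against 4.24 in the next. The reported Car8 probe was highest in the eye of Per3-/- mouse 5, at -0.0228 against -0.617. Car11 was highest in the eye of WT mouse 4, at 0.43 against 0.18 in the next, and lowest in the block of WT mouse 6, at 1.96 against 2.07.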

How the results depend on the processing

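With the replicate number as a block the count of member probes called in the eye went from 1 to 0, and the cause was not tested. Over 14 fits that each left out 1 eye the count was 1 and the Car6 difference -1.08 to -0.96, and over 16 that each left out 1 block the hypothalamus count was 0. The Car6 difference in the eye kept its direction and size in every alternative run, including -0.92 with normexp, and all 7 Per3-/- eyes lay below every WT eye after quantile normalization too. Car6 was chosen on these same eyes, so neither the count of 1 nor this stability is a test. The tissue counts of 10 and the count of 0 for the difference between tissues were the same in every alternative run. Among 447 other values recomputed, 10 turned sign, none of them past the threshold: Car11 in the eye (0.0021 with normexp, a setting that moved the median over all probes there from 0.00 to 0.18, so that Car11 stayed below it, and -0.0672 to 0.0499 with 1 eye left out), Car2 in the hypothalamus (-0.0328 to 0.056 with 1 block left out), Car14 in the hypothalamus (-0.0902 to 0.0098 likewise) and the tissue difference of Car2 (in WT mice 0.174 with quantile normalization and 0.0591 with normexp, in Per3-/- mice 0.0746 with quantile normalization). In the hypothalamus the replicate block changed no call, with 0 of 11 probes called. Between tissues neither taking every array as independent nor the mouse as a fixed block changed a call. Signal over background limits Car6 in the hypothalamus and the other Car3 and Car12 probes there.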
